A study of Mus musculus with 14 samples.

Results

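Ribosome biogenesis genes that MYC is known to drive were followed through all tumours of the series. The 42 genes were taken by symbol from a list of textbook factors. No rule on measured values picked them, but they were chosen with earlier results of these data known. All 42 had an entry in each of 2 deposited tables, among 16821 genes in the first and 16095 in the second. Total RNA was sequenced from MYC-driven hepatocellular carcinomas of the mouse carrying Cas9 edits. The first table held 4 tumours with a guide RNA against GFP (sgGFP, the control), 3 with a guide against Cul3 (sgCul3) and 3 with a guide against Keap1 (sgKeap1). The second held 2 sgNrf2 tumours (A and B) and 2 control libraries (A and B), which the labels describe as repeats of sgGFP tumours 2 and 4. KEAP1 and CUL3 form the ubiquitin ligase that holds down the transcription factor NRF2, and the ETGE motif of NRF2, where KEAP1 binds, was the target in the sgNrf2 tumours. Every tumour, the controls included, was driven by MYC, so no group shows these genes without it. The labels give the cell type as hepatocytes and no strain, age, promoter or number of animals. They do not say that tumours of a group came from separate animals, so each p-value reflects the spread among libraries and nothing wider.

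MYC binds E-box DNA as a dimer with MAX and raises the output of the whole ribosome assembly line, and enlarged nucleoli are a known feature of MYC-driven hepatocytes. RNA polymerase I makes the ribosomal RNA precursor in the nucleolus. Small nucleolar ribonucleoproteins (snoRNPs) of the box C/D and box H/ACA classes guide its chemical modification, on the ribose and on uridine respectively. Successive sets of helicases, nucleases, GTPases and scaffold proteins fold, cut and export the small and large subunits. The members were grouped by role into RNA polymerase I transcription (4 genes), box C/D snoRNP (4), box H/ACA snoRNP (4), nucleolar RNA chaperones and helicase (3), small subunit assembly (13) and large subunit assembly (14).

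The canonical E-box, CACGTG, was looked for in the promoters of the members. RefSeq promoter windows on GRCm38.p6, from 250 bases before to 50 bases after the transcription start, were at hand for 37 of the 42 genes. CACGTG, which reads alike on both strands, was present in 8 of these 37 genes (21.6%), in 8.09% of all 27025 genes with a window and in 11.8% of the 9694 of them tested in the first table. Imp4 and Nop2 held it 121 and 60 bases before the start, and the others held it between base 3 and base 41 of the transcript. The share depended on the window: in the 250 bases before the start alone it was 2 of 37 (5.41%), against 6.86% of all genes and 9.82% of the tested genes. The related CACGCG, searched on both strands, was present in 10 of the 37 (27.0%) and in 19.6% of the tested genes. In the 250 bases before the start alone CACGCG was present in 6 of the 37 (16.2%) and in 16.2% of the tested genes. The core of the antioxidant response element that NRF2 binds, TGACNNNGC, searched on both strands, was present in 2 of the 37 (5.41%), Bysl and Gar1, and in 16.9% of the tested genes. The stretches around the E-boxes are shown because they hold the letters that MYC and MAX are known to bind. Pno1, the only member called in the main limma fits, also holds one of them. They are written 5′ to 3′ on the strand of the gene, with the E-box in capitals, and a match is a description of the letters only.
Imp4 (chr1:34439696-34439725, plus strand): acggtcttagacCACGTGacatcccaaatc
Mybbp1a (chr11:72441355-72441376, plus strand): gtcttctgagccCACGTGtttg
Nop2 (chr6:125131811-125131840, plus strand): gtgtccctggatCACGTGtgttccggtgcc
Pes1 (chr11:3963965-3963994, plus strand): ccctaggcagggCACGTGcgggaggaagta
Pno1 (chr11:17211540-17211564, minus strand): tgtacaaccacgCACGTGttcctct
Tsr1 (chr11:74898092-74898121, plus strand): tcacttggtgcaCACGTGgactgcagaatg
Utp20 (chr10:88826765-88826789, minus strand): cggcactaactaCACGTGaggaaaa
Wdr43 (chr17:71616220-71616249, plus strand): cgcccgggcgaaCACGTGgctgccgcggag

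Depth ranged from 6333025 to 12008223 gene reads per library in the first table, and in the second from 17819333 to 20848578. It differed between groups of the first table, with 10739965 to 12008223 in sgGFP. The shallowest were sgCul3 tumour 1 (6333025) and sgKeap1 tumours 2 and 3 (6505295 and 6754550). In sgKeap1 tumour 2 the top 10 genes took 24.5% of the reads, the highest share of that table. The part of depth in the members' values was not tested. Keap1 had 462, 414 and 287 scaled counts in sgKeap1 tumours 1 to 3 against 582 to 721 in sgGFP, and fell (-0.77 ± 0.21, limma adjusted p = 0.0485). Cul3 had 163, 426 and 676 in sgCul3 tumours 1 to 3 against 935 to 1372 in sgGFP, a log2 fold change of -1.70 ± 0.39 (SE, limma adjusted p = 0.0509). Nfe2l2, which encodes NRF2, gave -0.051 ± 0.22 (SE, limma adjusted p = 0.893) in sgNrf2; an edit of a motif need not change a gene count. Summed hepatocyte markers (10 genes, with 0 called in any comparison) ranged from 13473 to 33778 CPM (reads of a gene relative to all gene reads of the library) in 9 libraries of the first table and stood at 91949 CPM in sgKeap1 tumour 2. Erythroid markers summed to 643 to 1445 CPM in sgGFP, 48.2 to 1173 in sgCul3 and 159 to 234 in sgKeap1, with 5 and 6 of 10 called lower, and Ermap was at 0 in all sgKeap1 tumours. In the second table they summed to 864 and 910 CPM in the controls and 56.6 and 118 in sgNrf2, with 9 of 10 called lower. Neutrophil markers summed to 78.5 to 546 CPM in sgGFP, 16.8 to 285 in sgCul3 and 10.5 to 23.1 in sgKeap1, with 0 and 7 of 9 called lower, and to 223 and 559 CPM in the controls against 10.3 and 34.0 in sgNrf2, with 3 called lower. Of all genes, limma called 2.20% with sgCul3, 7.82% with sgKeap1 and 4.41% with sgNrf2 in either direction. The part of these cell types in the members' values was not tested. In bulk tumours fewer cells of a type and less RNA per cell cannot be told apart.

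In the 4 sgGFP tumours the members took 0.874% to 1.28% of the reads on genes. Levels were compared between genes as CPM per kilobase of the annotated principal transcript. All 42 lay above the median of all genes (6.92 CPM per kb), and their own median was 48.6. Npm1, which encodes the nucleolar chaperone nucleophosmin, was the most abundant member at 769.57 ± 119 CPM per kb (SD, n = 4). Nhp2, a core box H/ACA protein, followed at 311 ± 53.3 and Ncl, which encodes nucleolin, at 302 ± 77.9; these did not differ beyond their spread. The annotated Ncl transcript is 8202 bases long, which lowers its level per kb. In the other roles the most abundant members were Gnl3 (large subunit, 177 ± 31.4), Nop58 (box C/D, 163 ± 33.3), Mybbp1a (RNA polymerase I, 123 ± 28.9) and Rcl1 (small subunit, 106.5 ± 13.9). Utp20 and Noc3l were lowest at 7.28 ± 1.83 and 7.05 ± 2.22 CPM per kb. Of the 41 pairs of neighbours in this order, 39 overlapped between tumours, and only Npm1 over Nhp2 and Ncl over Gnl3 stood apart. Within sgGFP the coefficient of variation of a member had a median of 16.5%, from 7.09% (Wdr43) to 47.6% (Fbl).

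**Figure D1:**
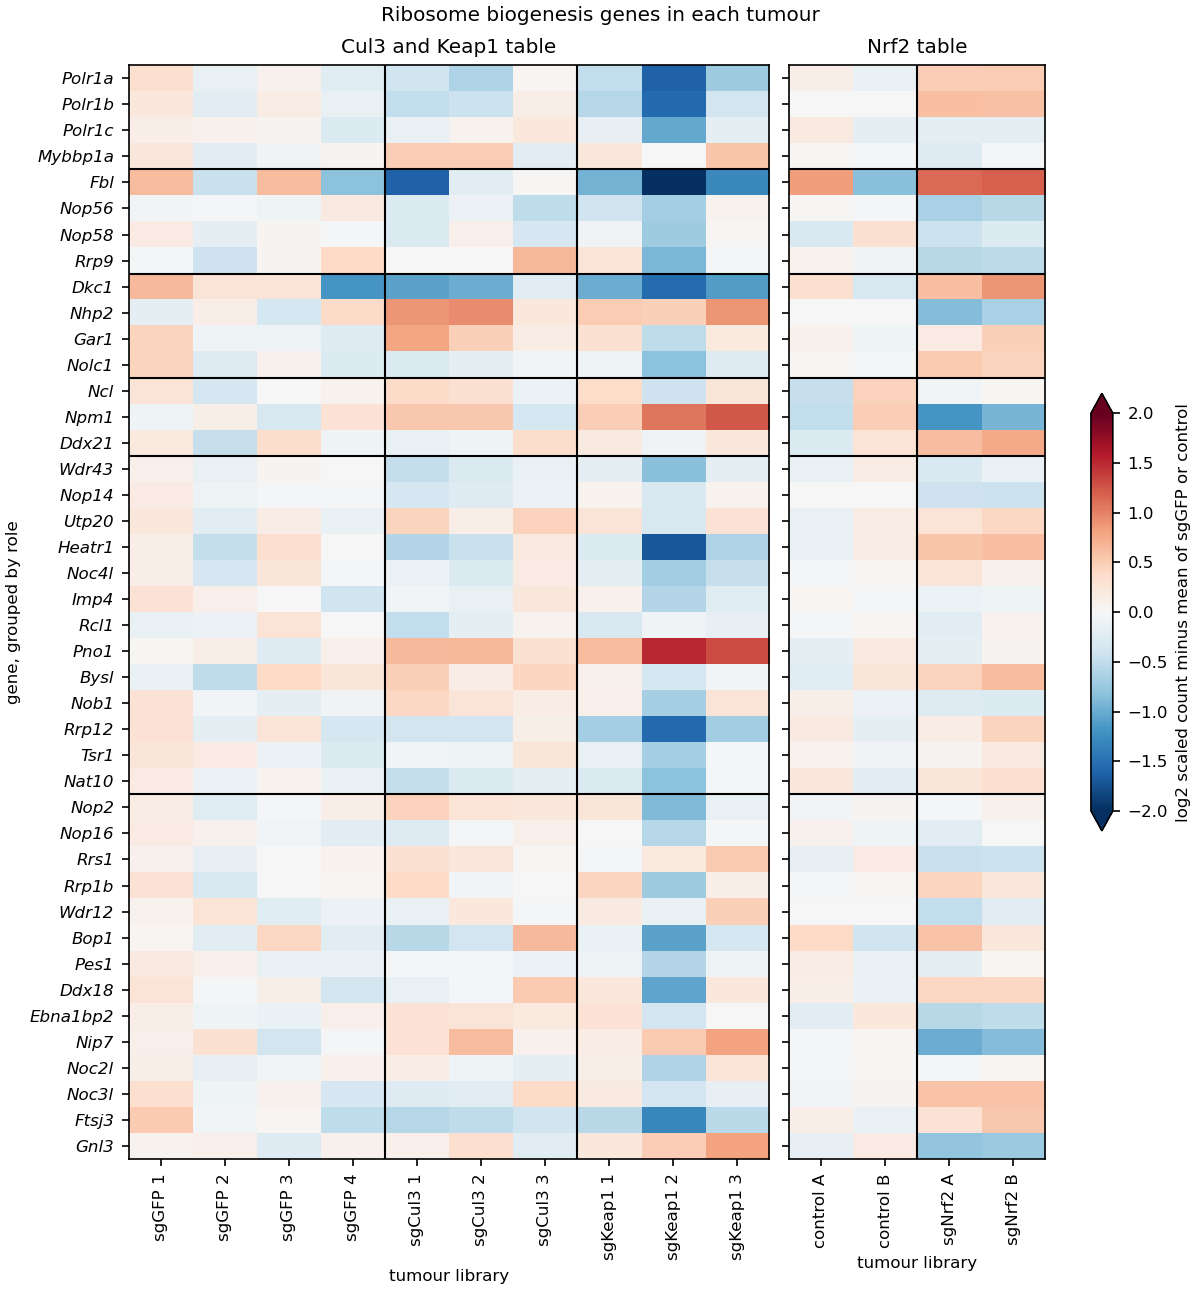
Each cell is the log2 scaled count (the deposited value) of 1 gene in 1 tumour minus the mean of the sgGFP tumours (left) or of the controls (right), for 42 genes grouped by role. sgKeap1 tumour 2 is the lowest of its 10 libraries for 30 genes, and Pno1 is above every sgGFP tumour in all 6 sgCul3 and sgKeap1 tumours.

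The first table asked whether these genes moved when a part of the KEAP1-CUL3 ligase was targeted. With sgCul3 0 of the 42 passed (limma, adjusted p under 0.05 over 13045 genes), against 2.20% of all genes. edgeR and DESeq2 also called 0, against 1.89% and 7.10% of all genes. At an unadjusted p under 0.05 in limma 2 members passed (4.76%), Nhp2 and Pno1, against 17.2% of all genes. With the tumour number as a replicate block 4 passed, for which the share of all genes was not counted. In 6 members (14.3%), 3 higher and 3 lower, the 3 sgCul3 tumours did not overlap the 4 sgGFP tumours, against 16.2% of all genes. The median log2 fold change of the members was 0.013, beside 0.011 for all genes, with 22 above and 20 below 0. No member differed by 1 or more on the log2 scale, and the median SE of a member was 0.23.

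With sgKeap1 1 of the 42 passed (2.38%), Pno1, which rose, against 7.82% of all genes. edgeR called the same gene alone, against 7.35% of all genes. DESeq2 called 7 (16.7%), Pno1 and Npm1 higher and Dkc1, Fbl, Ftsj3, Polr1a and Rrp12 lower, against 16.4% of all genes. At an unadjusted p under 0.05 in limma 12 passed (28.6%), 4 higher and 8 lower, against 29.2% of all genes, and 10 did not overlap sgGFP (23.8%), against 25.8%. The median of the members was -0.21, beside -0.0069 for all genes, and 31 of the 42 lay below 0 (73.8%, against 50.5% of all genes). This median rested on sgKeap1 tumour 2: without it the value was 0.0079, and limma called no member, against 2.87% of all genes. Pno1 was also not called without sgKeap1 tumour 3. Dkc1 was called lower besides Pno1 without sgGFP tumour 4 (together 4.76%, against 6.62% of all genes). Polr1a and Rrp12 were called lower besides Pno1 without sgKeap1 tumour 1 (together 7.14%, against 11.5%).

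Taking both guides together against sgGFP, Pno1 was again the only member that limma called (2.38%, against 7.56% of all genes). edgeR called 1, against 7.80% of all genes, and DESeq2 called 4 (9.52%; Pno1 and Nhp2 higher, Dkc1 and Ftsj3 lower), against 15.7%. At an unadjusted p under 0.05 in limma 8 passed (19.0%), against 27.0% of all genes, and Pno1 was the only member whose 6 guide tumours did not overlap sgGFP (2.38%, against 9.23%). Without sgCul3 tumour 3 limma also called Nhp2 higher, and without sgGFP tumour 4 Dkc1 lower. Each of these fits called 4.76% of the members, against 11.9% and 5.4% of all genes. Between sgKeap1 and sgCul3 0 passed, against 0.0613% of all genes, with 0 in edgeR and DESeq2, against 0.0460% and 0.797%. Pno1 and Rrp12 passed there at an unadjusted p under 0.05 in limma (4.76%, against 10.1% of all genes). In 3 members these groups did not overlap (7.14%, against 15.8%), Rrp12, Polr1c and Bysl, all lower with sgKeap1. The median in that comparison was -0.21, beside -0.0015 for all genes, and -0.019 without sgKeap1 tumour 2.

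The second table asked the same of tumours with an edited NRF2. With sgNrf2 0 of the 42 passed in limma, against 4.41% of the 13989 genes tested. edgeR called 0, against 3.32% of all genes, and DESeq2 called 5 (11.9%), Gnl3, Nhp2, Nip7, Nop56 and Npm1, all lower, against 18.9%. At an unadjusted p under 0.05 in limma 13 passed (31.0%), 7 higher and 6 lower, against 30.3% of all genes. In 30 members the 2 sgNrf2 tumours did not overlap the 2 controls (71.4%), 16 higher and 14 lower, against 64.0% of all genes. The members' median was -0.0058, beside 0.040 for all genes, and single members ranged from -1.06 (Npm1) to 1.17 (Fbl). Without control B, sgNrf2 A or sgNrf2 B limma called 0 members. Without control A it called 10 (23.8%), against 25.8% of all genes: Dkc1, Fbl, Polr1a and Polr1b higher and Ebna1bp2, Gnl3, Nhp2, Nip7, Npm1 and Rrs1 lower. Each of these fits leaves 1 library in a group, which is assumed to vary like the pair in the other, and without control A the spread comes from the 2 sgNrf2 tumours alone.

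**Figure D2:**
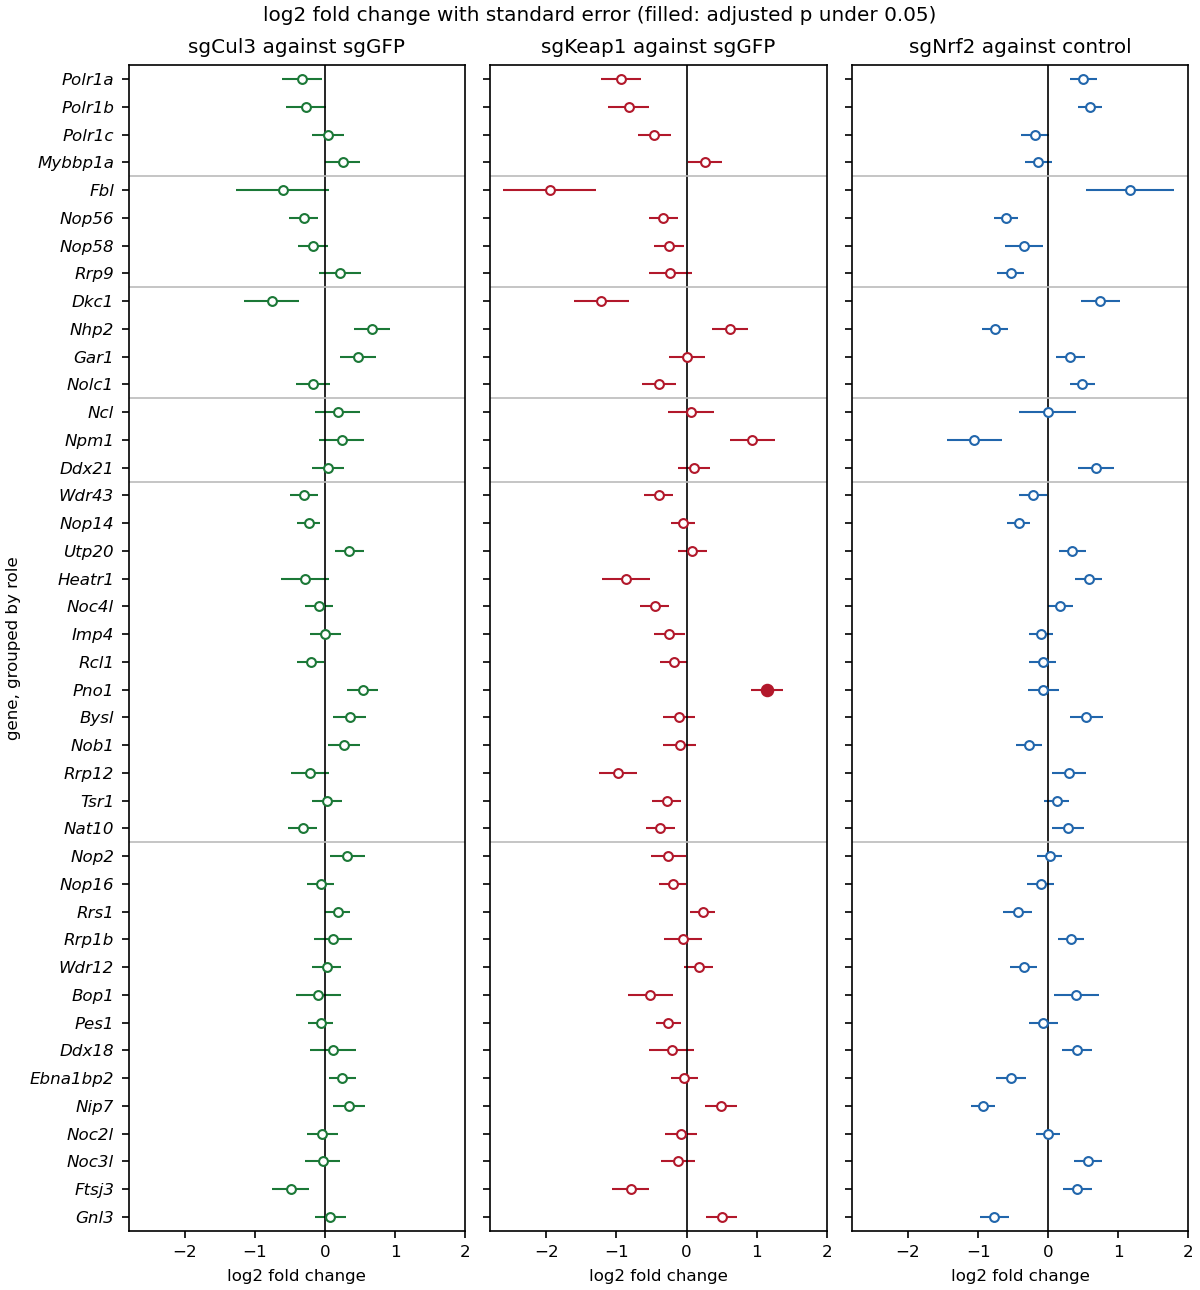
The log2 fold change (points) and its standard error (bars) of 42 genes grouped by role, with sgCul3 and sgKeap1 against sgGFP and sgNrf2 against the controls; filled points passed an adjusted p under 0.05 in limma. Pno1 with sgKeap1, at 1.15, is the only filled point.

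Of the RNA polymerase I genes, Polr1b encodes the next to largest subunit of the enzyme. It had 1312, 970.46, 1251.5 and 1021 scaled counts in sgGFP tumours 1 to 4, 801, 834 and 1238 in sgCul3 1 to 3, and 762, 383 and 877 in sgKeap1 1 to 3. All 3 sgKeap1 tumours lay below the lowest sgGFP tumour, a log2 fold change of -0.83 ± 0.29 (SE, limma adjusted p = 0.0910) that did not pass. In the second table the controls had 2098 and 2074 and sgNrf2 A and B 3171 and 3125, again without overlap, with a log2 fold change of 0.59 ± 0.17 (SE, limma adjusted p = 0.0992). The largest subunit, Polr1a, gave -0.94 ± 0.28 (SE, limma adjusted p = 0.0634) with sgKeap1 and 0.50 with sgNrf2. Polr1c, a subunit shared with RNA polymerase III, gave -0.46 and -0.19. Mybbp1a, a MYB-binding nucleolar protein and the most abundant of the 4, had 5701, 4173, 4625 and 5031.5 scaled counts in sgGFP, 6805, 6839.8 and 4136 in sgCul3 and 5694.5, 4867 and 7102 in sgKeap1. These overlapped, and its log2 fold changes were 0.25, 0.26 and -0.14 with sgCul3, sgKeap1 and sgNrf2.

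The box C/D proteins form the particles that methylate ribosomal RNA, and the main limma fits called 0 of the 4 with any guide. Nop58, a core protein and the most abundant of them, had 2842, 2224, 2638.5 and 2491 scaled counts in sgGFP 1 to 4, 2081, 2729.5 and 2020.4 in sgCul3 and 2419.8, 1551 and 2587 in sgKeap1, overlapping throughout. The core proteins Nop56 and Nop58 and the U3 particle protein Rrp9 gave log2 fold changes of -0.33, -0.25 and -0.23 with sgKeap1 and -0.60, -0.35 and -0.54 with sgNrf2. Fbl, which encodes the methyltransferase fibrillarin, had 194, 92.1, 194 and 70.7 scaled counts in sgGFP, 40.1, 106 and 127 in sgCul3 and 64.6, 8.11 and 50.5 in sgKeap1. Its level in sgGFP was 12.9 ± 7.04 CPM per kb, low beside its partner Nop58, and 57.6% of its transcript is near-identical to one of Tulp4, so its reads are uncertain. Its log2 fold change was -1.96 ± 0.67 (SE, limma adjusted p = 0.0873) with sgKeap1 and 1.17 with sgNrf2.

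The box H/ACA proteins form the particles that turn uridine of ribosomal RNA into pseudouridine, and the core members Dkc1 and Nhp2 had fold changes of opposite sign. Dkc1, on chromosome X, encodes the pseudouridine synthase dyskerin. It had 1670.5, 1270.4, 1267 and 469 scaled counts in sgGFP 1 to 4, 502, 529.95 and 920.3 in sgCul3 and 530.39, 365 and 488 in sgKeap1. The sgGFP tumours 1 to 3 were above all 6 guide tumours, and sgGFP 4 was among them. Its log2 fold change was -0.76 ± 0.39 (SE, limma adjusted p = 0.354) with sgCul3 and -1.22 ± 0.39 (SE, limma adjusted p = 0.0775) with sgKeap1. Without sgGFP tumour 4 the latter was -1.61 and passed (limma adjusted p = 0.0103). In the second table Dkc1 had 2362 and 1526 in the controls against 2888 and 3508 in sgNrf2, a log2 fold change of 0.74.

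Nhp2 had 2604, 3245, 2322 and 3863 scaled counts in sgGFP 1 to 4, 5438, 5667 and 3405 in sgCul3 and 4201, 4097 and 5470.4 in sgKeap1. The 3 sgKeap1 tumours lay above every sgGFP tumour, while sgCul3 tumour 3 lay within their range. The log2 fold changes of 0.68 ± 0.26 (SE, limma adjusted p = 0.209) with sgCul3 and 0.62 with sgKeap1 did not pass. In the second table Nhp2 had 6785 and 6918 in the controls and 3757 and 4387 in sgNrf2, a log2 fold change of -0.75 ± 0.19 (SE, limma adjusted p = 0.0818). Gar1, another core protein, gave 0.47, -1.0e-05 and 0.31 with sgCul3, sgKeap1 and sgNrf2. Nolc1, a chaperone of these particles, gave -0.17, -0.39 and 0.48 with the same guides.

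Of the nucleolar chaperones, Npm1 had 10810, 12465, 9179 and 13986 scaled counts in sgGFP 1 to 4, 16583, 16639 and 8940.3 in sgCul3 and 16116, 24177 and 27218 in sgKeap1. All sgKeap1 tumours lay above all sgGFP tumours, a log2 fold change of 0.94 ± 0.32 (SE, limma adjusted p = 0.0911) that did not pass. The controls A and B had 24306 and 47798 and sgNrf2 A and B 15005 and 17910, a log2 fold change of -1.06 ± 0.39 (SE, limma adjusted p = 0.153), also without overlap. Near-identical copies, 2 pseudogenes among them, cover 53.8% of the Npm1 transcript, so its reads are uncertain. Non-unique alignments, a separate entry of the second table, stood at 1.64 and 1.74 per read on genes in the controls but 0.944 and 1.01 in sgNrf2, and their part in the Npm1 value was not tested. Ncl gave 0.18, 0.062 and -0.0087 with sgCul3, sgKeap1 and sgNrf2, and the RNA helicase gene Ddx21 gave 0.04, 0.11 and 0.68.

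Among the small subunit factors Pno1 was the one called in the main limma fits. It encodes an RNA-binding partner of the nuclease NOB1 in late precursors of the small subunit. Pno1 (GRCm38 chromosome 11, 17203198 to 17211568, minus strand) had 715, 774, 589.88 and 761 scaled counts in sgGFP 1 to 4, 1104, 1121 and 869 in sgCul3 1 to 3 and 1093, 2011 and 1750.4 in sgKeap1 1 to 3. All 6 guide tumours lay above the highest sgGFP tumour. The means were 1618 ± 473 in sgKeap1 and 709.96 ± 83.9 in sgGFP (SD, n = 3 and 4), and Pno1 rose by 1.15 ± 0.23 (SE) on the log2 scale (limma adjusted p = 0.0149, and 0.000123 to 0.0731 over its alternatives). Without sgKeap1 tumour 2 or 3 it did not pass (limma adjusted p = 0.0588 and 0.0731), at log2 fold changes of 0.97 and 1.07. With sgCul3 the mean was 1031.5 ± 141, and the log2 fold change of 0.54 ± 0.23 (SE, limma adjusted p = 0.253) did not pass. For both guides together Pno1 rose by 0.84 ± 0.19 (limma adjusted p = 0.0252, and 0.00138 to 0.0938 over its alternatives). It did not pass there without any 1 of sgGFP tumours 1, 2 or 3, sgCul3 tumours 1 or 2, or sgKeap1 tumour 3 (limma adjusted p = 0.0501 to 0.0938). The difference of 0.61 between sgKeap1 and sgCul3 did not pass (limma adjusted p = 0.465). In the second table Pno1 had 1260.4 and 1603.5 in the controls and 1244 and 1477 in sgNrf2, overlapping, with a log2 fold change of -0.068 ± 0.22. Pno1 overlaps Wdr92 on the opposite strand, and whether reads were counted by strand is not given in the sources used here. It is one of the 8 genes with an E-box printed above, whose median log2 fold changes were 0.14, -0.25 and -0.069 with sgCul3, sgKeap1 and sgNrf2, beside -0.033, -0.18 and -0.0030 for the 29 members whose window holds none.

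The other 12 small subunit factors did not pass with any guide in the main limma fits, while some alternative fits called Rrp12 or Heatr1. Nob1 itself gave 0.27, -0.10 and -0.27 with sgCul3, sgKeap1 and sgNrf2. Rrp12, which helps export the pre-ribosome, had 573, 409.66, 561 and 366 scaled counts in sgGFP 1 to 4 and 293, 158 and 289 in sgKeap1 1 to 3, without overlap. Its log2 fold change of -0.97 ± 0.27 (SE, limma adjusted p = 0.0526) had the smallest adjusted p among the members with lower levels, and between sgKeap1 and sgCul3 it gave -0.76 ± 0.29 (SE, limma adjusted p = 0.458). Heatr1, a scaffold of the early precursor, had 722, 476, 839 and 663 in sgGFP and 548, 203 and 429 in sgKeap1, a log2 fold change of -0.86 ± 0.34 (SE, limma adjusted p = 0.124) with overlap. In sgNrf2 it had 1743 and 1789 against 1072 and 1306 in the controls, a log2 fold change of 0.58 ± 0.19 (SE, limma adjusted p = 0.130). Rcl1, the most abundant factor of this role, gave -0.20, -0.18 and -0.079 with sgCul3, sgKeap1 and sgNrf2. Wdr43, Nop14, Utp20, Noc4l, Imp4, Bysl, Tsr1 and Nat10 lay between -0.45 and 0.080 with sgKeap1 and between -0.42 and 0.54 with sgNrf2.

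Of the 14 large subunit factors the main limma fits called 0 in any comparison, while some alternative fits called members of this role, such as Ftsj3, lower. Ftsj3, a methyltransferase of the precursor, had 2472, 1642, 1753 and 1205 scaled counts in sgGFP 1 to 4, 1158, 1203.5 and 1301 in sgCul3 and 1168, 693 and 1182 in sgKeap1. Tumour 4 was the sgGFP tumour nearest to the guide tumours and lay within the sgCul3 range. Its log2 fold change was -0.49 ± 0.26 (SE, limma adjusted p = 0.376) with sgCul3, -0.79 ± 0.26 (SE, limma adjusted p = 0.0823) with sgKeap1 and 0.42 with sgNrf2. Nip7, needed for large subunit maturation, had 1158, 1326, 829 and 1046 in sgGFP, 1318, 1671 and 1145.5 in sgCul3 and 1185, 1553 and 1873 in sgKeap1, overlapping in both cases. In the second table it had 2919.8 and 3054 in the controls and 1496 and 1645 in sgNrf2, with the smallest adjusted p of any member there, at a log2 fold change of -0.93 ± 0.17 (SE, limma adjusted p = 0.0552). Gnl3, the GTPase nucleostemin, had 7307 and 9084.5 in the controls against 4711 and 4855.5 in sgNrf2, a log2 fold change of -0.77 ± 0.20 (SE, limma adjusted p = 0.0897), and gave 0.50 with sgKeap1. The partners Pes1, Bop1 and Wdr12, which work as 1 complex, gave -0.26, -0.52 and 0.17 with sgKeap1 and -0.069, 0.40 and -0.35 with sgNrf2. The methyltransferase Nop2 gave -0.58 ± 0.26 (SE, limma adjusted p = 0.495) between sgKeap1 and sgCul3. Nop2, Nop16, Rrs1, Rrp1b, Ddx18, Ebna1bp2, Noc2l and Noc3l lay between -0.26 and 0.23 with sgKeap1 and between -0.53 and 0.56 with sgNrf2. Near-identical copies cover 87.8% of the Ddx18 transcript, 48.2% of Wdr12 and 39.0% of Nop56, whose reads are therefore uncertain too. Over all roles 19 of the 42 members overlap an annotated gene on the opposite strand, and their reads carry the same limit as those of Pno1: Polr1a, Mybbp1a, Nop56, Rrp9, Dkc1, Nhp2, Wdr43, Nop14, Heatr1, Imp4, Pno1, Bysl, Tsr1, Rrp1b, Wdr12, Bop1, Pes1, Noc2l and Gnl3.

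**Figure D3:**
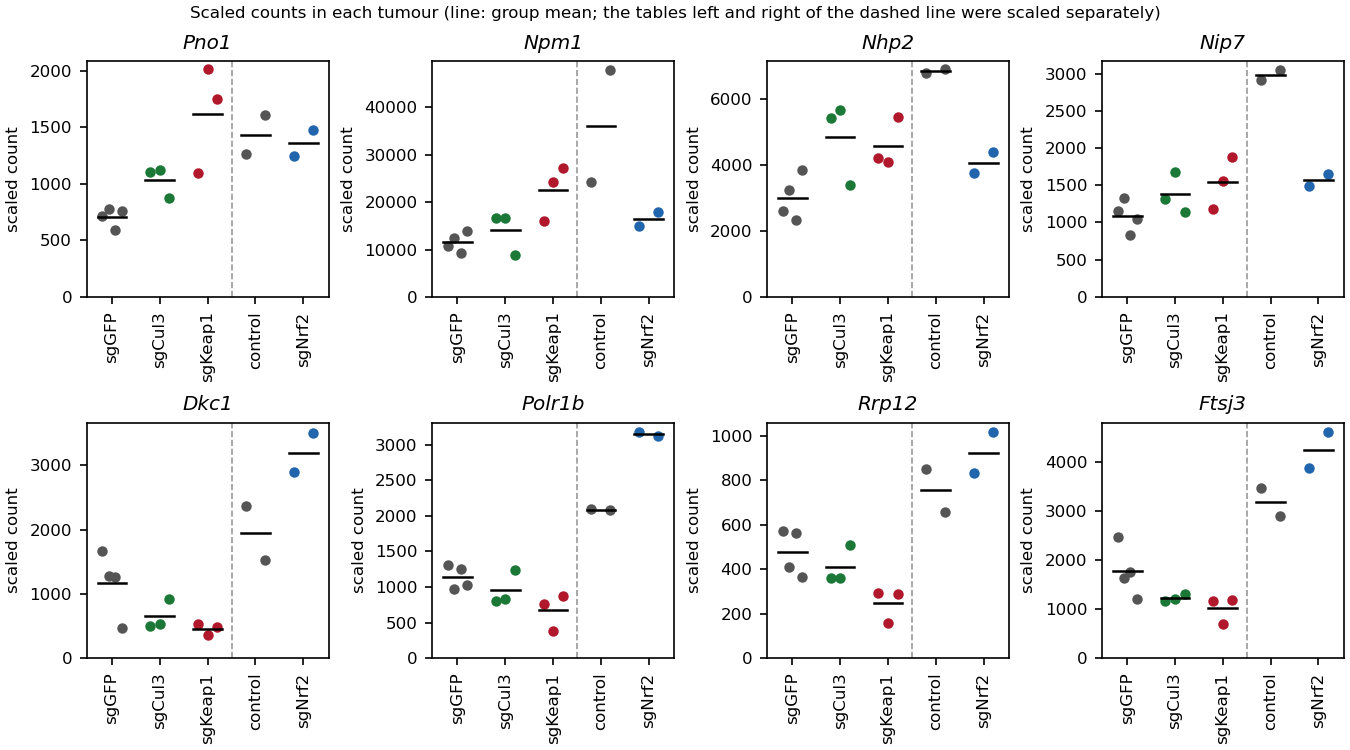
Scaled counts of 8 members in each tumour (points) with the group mean (line); the tables on either side of the dashed line were scaled separately and are not comparable in level. Pno1 is higher in all 6 sgCul3 and sgKeap1 tumours than in sgGFP, and Nip7 and Nhp2 are lower in both sgNrf2 tumours than in both controls.

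The controls of the second table repeat 2 of the sgGFP tumours, so the fold changes with sgKeap1 and with sgNrf2 share tumours. The contrast between the guides was not tested.

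Over all genes, fold changes differed with transcript length. The members have annotated transcripts from 1042 bases (Nhp2) to 9216 bases (Polr1a), with a median of 2827. With sgNrf2 the 21 shorter members had a median log2 fold change of -0.11 and the 21 longer ones 0.30, and over all genes with a length the medians on either side of 2827 bases were -0.14 and 0.29. With sgKeap1 the medians of all genes were 0.11 below and -0.12 above that length, and those of the members were -0.20 and -0.25. Across genes, Spearman's rho between length and log2 fold change was 0.30 for 12736 genes and 0.44 for the 42 members with sgNrf2, and -0.19 and -0.16 with sgKeap1. Genes share libraries, so these are descriptions. The split was seen in both sgNrf2 tumours, where the median of the shorter genes minus that of the longer genes was -0.46 and -0.41. The controls gave 0.051 and -0.051, which mirror each other because deviations were taken from their mean. In the first table the same value ran from -0.14 to 0.14 in sgGFP. It ran from -0.022 to 0.36 in sgCul3 and from 0.18 to 0.30 in sgKeap1. The part of length in the members' values was not tested.

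**Figure D4:**
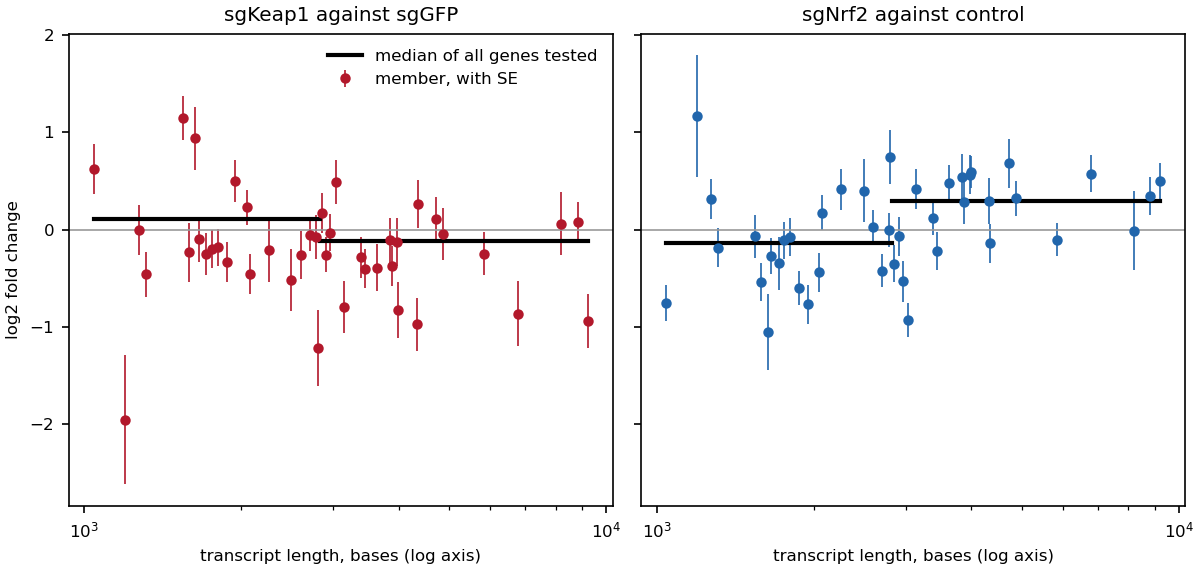
The log2 fold change with its standard error (points and bars) of each member against the length of its annotated principal transcript, with sgKeap1 (left) and sgNrf2 (right). Black lines are the medians of all genes tested that are shorter or longer than 2827 bases, at 0.11 and -0.12 with sgKeap1 and -0.14 and 0.29 with sgNrf2.

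The level of Myc itself set sgKeap1 tumour 2 apart. Myc had 6758, 3711.5, 4707 and 4060.5 scaled counts in sgGFP 1 to 4, 2277, 3066 and 3063.5 in sgCul3 and 6146, 1018 and 4661 in sgKeap1. The labels do not say whether the MYC that drives the tumours is counted in this gene. Its log2 fold changes were -0.75 ± 0.51 (SE, limma adjusted p = 0.487) with sgCul3, -0.60 ± 0.51 (SE, limma adjusted p = 0.450) with sgKeap1 and -0.057 ± 0.26 (SE, limma adjusted p = 0.903) with sgNrf2, and none passed. The members' median, as log2 from the sgGFP mean, was -0.64 in sgKeap1 tumour 2 and between -0.12 and 0.16 in the other 9 libraries, while the median of all genes was -0.0055 in that tumour. This library was the lowest of the 10 for 30 of the 42 members and held 0.645% of its reads on them, against 0.874% to 1.28% elsewhere. It had the lowest Myc and the highest hepatocyte markers of the table, and it was also the library in which Pno1 was highest. Across the 10 libraries Myc (log2) and the members' median had a Pearson r of 0.89 and a Spearman rho of 0.71. Without sgGFP tumour 1 and sgKeap1 tumour 2, the 2 farthest from the median Myc level, these were 0.49 and 0.43 over 8, so the relation rests largely on those libraries, and no p is given for a score over chosen genes. With the summed hepatocyte markers r was -0.83 and rho -0.50, and -0.33 and -0.29 without sgCul3 tumour 2 and sgKeap1 tumour 2. The parts of Myc and of hepatocyte RNA in the members' values were not tested.

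**Figure D5:**
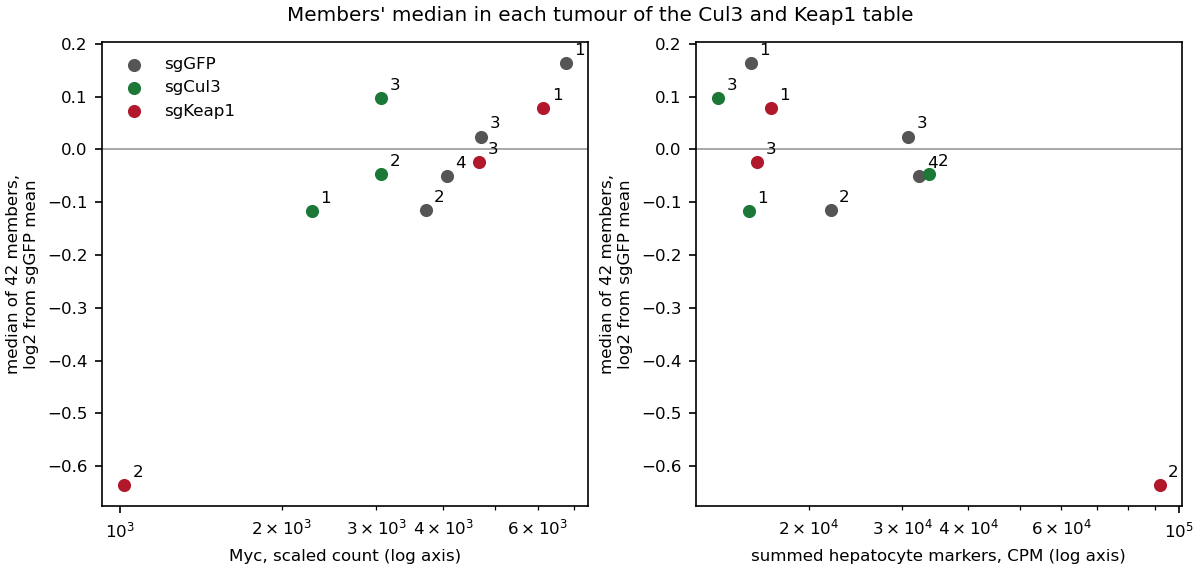
The median of the 42 members in each of the 10 tumours of the first table (log2 from the sgGFP mean) against the scaled count of Myc (left) and the summed CPM of 10 hepatocyte markers (right), with tumour numbers beside the points. sgKeap1 tumour 2 lies alone at -0.64, and the other 9 tumours lie between -0.12 and 0.16.

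The repeat libraries show how far a member differed between libraries of the separate tables that the labels describe as repeats of 1 tumour. The parts of sequencing, library preparation and data processing in these differences were not tested. In CPM, 41 of the 42 members of control A lay within 0.5 on the log2 scale of sgGFP tumour 2, against 91.9% of all genes. For control B and sgGFP tumour 4 it was 35 of 42, against 77.0% of all genes. The members beyond it were Fbl (-1.96), Rrp9 (-1.04), Bop1 (-0.67), Ncl (0.53), Nop58 (0.59), Dkc1 (0.59) and Npm1 (0.67). For Rrp9 the log2 fold change with sgNrf2, in which control B took part, was -0.54. Dkc1 had 44.8 CPM in sgGFP tumour 4 and 67.7 in control B, against 138 and 123 in sgGFP tumour 2 and control A, so it was low in both libraries of tumour 4.

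Genes from related lists outside the 42 were also counted in limma. Of all genes, limma called 2.20% with sgCul3, 7.82% with sgKeap1 and 7.56% with both guides together. It called 0.0613% between sgKeap1 and sgCul3 and 4.41% with sgNrf2. The calls below describe single genes and not the lists. Of 89 further ribosome biogenesis factors, 1 rose and 1 fell with sgKeap1, and 0 passed in the other comparisons. These were Emg1, a methyltransferase of the small subunit RNA (0.88 ± 0.24, limma adjusted p = 0.0486), and Rrp8, a methyltransferase of the large subunit RNA (-1.14 ± 0.28, limma adjusted p = 0.0348). Of 12 genes of the RNA exosome, which trims ribosomal RNA precursors, Exosc3 rose with sgKeap1 (0.91 ± 0.22, limma adjusted p = 0.0314) and with both guides together (0.86 ± 0.18, limma adjusted p = 0.0179). Of 12 other RNA polymerase I genes, Taf1d, a subunit of its promoter factor, fell with sgNrf2 (-1.33 ± 0.19, limma adjusted p = 0.0422), and of 20 RNA polymerase III genes 0 passed. In the MYC network of 10 genes Mxd1, which encodes a MAX partner that opposes MYC, fell with sgKeap1 (-1.39 ± 0.29, limma adjusted p = 0.0178) and with both guides together (-0.92 ± 0.24, limma adjusted p = 0.0458). Of 28 other textbook MYC targets, Ldha, a lactate dehydrogenase gene, fell with sgKeap1 (-1.67 ± 0.40, limma adjusted p = 0.0317) and Nme1, a nucleoside diphosphate kinase gene, fell with sgNrf2 (-1.16 ± 0.18, limma adjusted p = 0.0451).

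The cytosolic ribosomal protein genes encode the proteins that the members help to assemble. Of 77 measured, limma called 19 lower with sgNrf2, where it called 4.41% of all genes. In that comparison 76 of the 77 lay below 0, as did 47.9% of all genes. Their median log2 fold change was -1.24, beside 0.040 for all genes and -0.0058 for the members. Rps28 had 2564 and 3399 scaled counts as the lower and higher control and 732 and 753 in sgNrf2, a log2 fold change of -1.99 ± 0.21 (SE, limma adjusted p = 0.0337). The summed level of the list was 32173 and 25752 CPM in the controls against 15822 and 17555 in sgNrf2. With sgKeap1 3 of the 77 fell, where 7.82% of all genes were called, at a median of 0.30. With sgCul3 0 passed, against 2.20% of all genes, at a median of 0.13. The part of transcript length and of non-unique alignments in these values was not tested. Of 20 proliferation markers 1 rose with sgCul3, Cdk1, a cell cycle kinase (0.87 ± 0.20, limma adjusted p = 0.0484), where 2.20% of all genes were called. With both guides together 2 rose, Cdk1 and Pcna, where 7.56% of all genes were called. The median of that list was 0.44 with sgCul3, -0.11 with sgKeap1 and 0.30 with sgNrf2.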

How the data were processed

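Total RNA of 14 tumour libraries was sequenced, per the labels, after a Qiagen extraction and an Illumina TruSeq preparation. Each deposited value is a signal, a gene count scaled by the authors: HTSeq, DESeq, Picard and the build mm10 stand in the submitters' processing notes, without versions or order. For the aligner, annotation and strandedness, the sources used here give nothing. Every value of the first table has 1 added, which was removed for the levels in the text. In each library 100% of the values were then whole multiples of 1 read (within 0.1), so reads were recovered for edgeR, DESeq2 and CPM. The tables were scaled separately and tested apart. Repeated or date-like symbols were renamed by gene ID (23 and 24).

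Each whole table was fitted, after leaving out genes whose deposited values averaged under 10, with limma 3.58.1 in R 4.3.3, with a mean-variance trend, on log2 of the deposited value plus 1, which understates changes of low genes. Tests were two-sided with Benjamini-Hochberg adjustment over all genes, called under 0.05, and all 3 groups of the first table went into 1 estimate of the spread. The fit was tested on simulated data. Alternatives were a pseudocount of 5, the added 1 removed, equal totals, quantile normalization, DESeq2 1.42.0, edgeR 4.0.16 with TMM and the quasi-likelihood test, a minimum average of 50 or none, the tumour number as a replicate block, only the 2 groups compared, and leaving out single libraries. sgGFP and sgCul3 tumours of the same number deviated together from their group means, with correlations of 0.221, 0.228 and 0.243. Any pairing by these numbers comes from the data and not the labels. Only the replicate block used it, and the main fits did not. Coordinates, lengths (of the principal coding transcript) and near-identical copies (at least 97% over at least 75 bases) come from GENCODE M21 on GRCm38, and promoter sequences from RefSeq on GRCm38.p6.

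The members, their roles and the other lists were chosen with earlier results of these data known. Values were to be given for the members that passed in a comparison, or else the 2 with the smallest adjusted p in each direction, for the most abundant member of each role, and for up to 4 genes of each other list. Further members were picked for description once their values had been seen. Of further cell type lists, the counts called higher and lower in limma with sgCul3, sgKeap1 and sgNrf2 were 0 and 0, 0 and 0, and 0 and 2 for macrophages, 0 and 2, 0 and 1, and 1 and 0 for endothelium, 1 and 0, 1 and 0, and 2 and 0 for stellate cells, and 1 and 0, 2 and 0, and 0 and 0 for cholangiocytes. Of all genes 2.20%, 7.82% and 4.41% were called with these guides. Of 10 T and NK cell markers, 1 was tested in the first table and 7 in the second. Of 7 B cell markers, 2 and 3 were tested. The rest were absent or too low to be tested, and of those tested 0 were called.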

Additional observations from a re-analysis of the deposited data

Results flagged for a closer look

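Gnl3, which encodes nucleostemin, had 1 sgGFP tumour far from the other 3: tumour 3 had 2610.2 scaled counts, against 3282, 3375.5 and 3338 in tumours 1, 2 and 4, a gap of 0.877 of the range of the group. sgGFP is the only group with 4 libraries, and 1 of the 42 members had such a gap there, where chance gives about 1 in 20. Without that tumour the calls on Gnl3 in limma stayed as they were.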

How the results depend on the processing

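No called value changed sign under any alternative. With sgKeap1 the count of members called lower was 1 under quantile normalization (Rrp12), 5 in DESeq2, and 0 to 2 over the fits that left out 1 library. The count called higher was 2 in DESeq2 and 0 to 1 when leaving out 1 library. In either direction quantile normalization called 4.76% of the members, against 8.22% of all genes, and DESeq2 16.7%, against 16.4%. Leaving out 1 library gave 0% to 7.14%, against 2.4% to 11.5% of all genes. The median of the members ranged from -0.30 to 0.0079 over those fits, the highest being without sgKeap1 tumour 2. For both guides together DESeq2 called 2 higher and 2 lower (9.52%, against 15.7% of all genes). Leaving out 1 library gave 0 to 2 higher and 0 to 1 lower. In either direction that was 0% to 4.76% of the members, against 3.02% to 11.9% of all genes. With equal totals the median with sgKeap1 was -0.41, where that of all genes was -0.21, and the median between sgKeap1 and sgCul3 was -0.45, where that of all genes was -0.23. With sgNrf2 the median was 0.18 under quantile normalization and 0.30 with equal totals, where that of all genes was 0.35, and -0.053 to 0.063 when leaving out 1 library. Equal totals called 3 members higher there (7.14%, against 8.98% of all genes), Ddx21, Heatr1 and Polr1b. DESeq2 called 5 lower (11.9%, against 18.9%). The cause of these changes was not tested.

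With the tumour number as a replicate block 5 members were called lower with sgKeap1 (Dkc1, Ftsj3, Polr1a, Polr1b and Rrp12) and 1 higher, together 14.3% of the members, against 13.6% of all genes. For both guides together 2 were called lower (Dkc1 and Ftsj3) and 1 higher, together 7.14%, against 9.29% of all genes. The other counts at an adjusted p under 0.05 in limma were as without the block. At an unadjusted p under 0.05 the block gave 4 members with sgCul3, 12 with sgKeap1, 9 for both guides, 6 between sgKeap1 and sgCul3 and 7 with sgNrf2. The shares of all genes at that cut-off were not counted under the block. Same-numbered sgGFP and sgKeap1 tumours correlated at 0.208, 0.0940 and -0.0830, so there the numbers are not shown to pair the tumours. Between sgCul3 and sgKeap1 the correlations were 0.239, 0.518 and 0.0980. There sgCul3 tumours 1 and 3 matched sgKeap1 tumours 3 and 1 best. With 2 libraries a group in the second table, and 3 or 4 in the first, changes of several standard errors could go uncalled. Rrp12 with sgKeap1 (-0.97 ± 0.27, SE, limma adjusted p = 0.0526) did not pass. Neither did Nip7 with sgNrf2 (-0.93 ± 0.17, SE, limma adjusted p = 0.0552). A member that was not called is therefore not shown to be unchanged.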
